A study of Mus musculus with 2 samples.

Results

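The thick ascending limb of the loop of Henle is the stretch of the nephron that takes up sodium, potassium and chloride from the forming urine without letting water follow. The work is done by the apical cotransporter NKCC2, the product of Slc12a1, together with the potassium channel ROMK (Kcnj1), which returns potassium to the lumen so that the cotransporter can go on working. Calcium and magnesium pass between the cells through pores made of claudin proteins, and the calcium-sensing receptor (Casr) adjusts that route. At its far end the limb touches its own glomerulus, where a few cells form the macula densa, which senses salt and signals for renin release.

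Thick limb nuclei were chosen from 2 single-nucleus RNA-seq libraries of developing mouse kidney, 1 per age. The late embryonic (E18.5) library came from kidneys of genotype Mycf/f;Mycnf/f (no Cre), in which the alleles of Myc and Mycn are flanked by recombination sites but no recombinase is carried, on a mixed strain background. The postnatal day 3 (P3) library came from Wild type kidneys that the labels place on C57BL/6J, whereas the published methods describe a mixed background. In both, male and female kidneys were pooled and snap-frozen whole, so that nuclear RNA of all kidney cell types was sequenced from their 3′ ends. Age therefore cannot be told apart from genotype, background, library or the software release that counted the reads, and with 1 library per age no comparison has a test. All intervals below are exact 95% intervals that cover counting error only.

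A kept nucleus had 1000 to 6000 UMIs (unique molecular identifiers, each standing for 1 captured RNA molecule) at E18.5 or 1000 to 10000 at P3, with at most 0.6% of them from mitochondrial genes. A thick limb nucleus was a kept nucleus with at least 2 UMIs of Slc12a1, a UMI of at least 3 of the 8 genes Slc12a1, Umod, Casr, Esrrb, Ptger3, Tmem72, Enox1 and Kng2, and none of Slc12a3, the cotransporter of the distal convoluted tubule that follows the limb. By this rule 852 of 27962 kept nuclei were thick limb nuclei. At E18.5 they were 334 of 18673, a share of 1.79% (1.60 to 1.99), taken from 21600 deposited barcodes holding 77688411 UMIs. At P3 they were 518 of 9289, a share of 5.58% (5.12 to 6.06), from 12216 barcodes and 70559806 UMIs. The shares carry the different UMI limits of the ages: with 6000 UMIs as the upper limit at P3 too, 321 nuclei were left there. That limit also left fewer than 9289 kept nuclei, so the 321 are not a share of 9289, and the share under it is not given here.

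Thick limb nuclei held a median of 3660 UMIs at E18.5 and 5105.5 at P3, against 2947 and 4257 in the other kept nuclei. They held 1256739 and 2842587 UMIs in all. The libraries had 69 barcode sequences in common. Scrublet, which scores each barcode against artificial pairs, called 20.4% of thick limb nuclei doublets at E18.5 and 20.8% at P3, compared with 12.7% and 10.2% of the other kept nuclei. Because of that excess, results are also given for the 248 and 352 thick limb nuclei that had at least 10 Slc12a1 UMIs and no doublet call, a stricter set added after the data had been seen.

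Since the rule used Slc12a1, its counts describe the choice and support nothing. The median thick limb nucleus held 39 Slc12a1 UMIs at E18.5, with a maximum of 152, and 50 at P3, with a maximum of 206. Of the 334 E18.5 nuclei 282 held at least 20, and of the 518 P3 nuclei 407 did. At the low edge, 16 E18.5 nuclei and 61 P3 nuclei had only 2 to 4. These looked unlike the rest: in the P3 ones Kcnj1 stood at 13.2 CPM (UMIs of the gene per 1000000 UMIs), against 256 in the nuclei with at least 20, while Meis1, a stromal transcription factor, stood at 871 against 236, and Slc8a1, an exchanger of the distal convoluted tubule, at 2517 against 376.

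**Figure D1:**
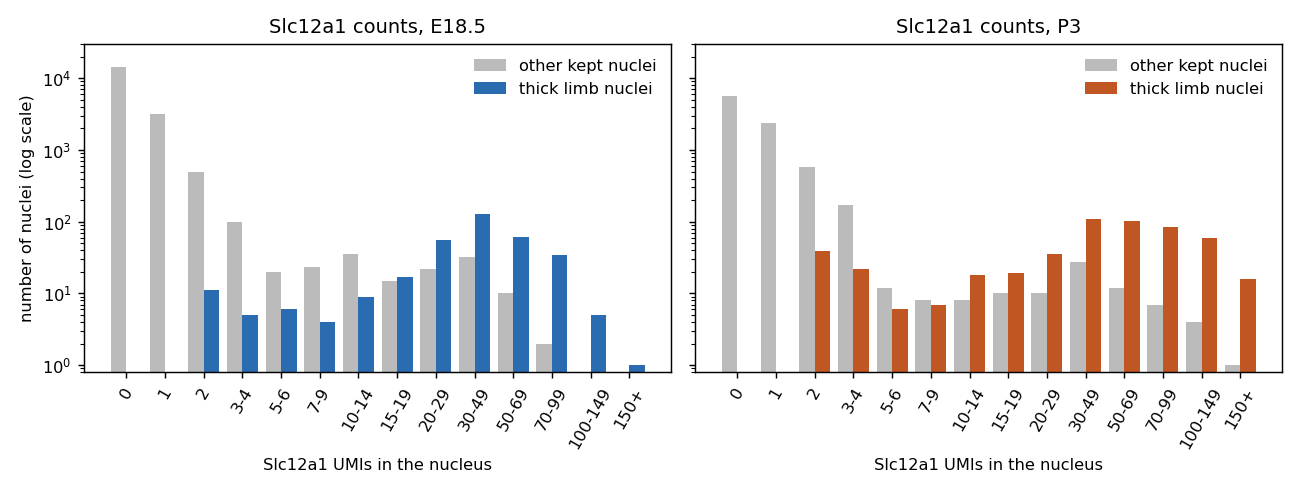
Number of nuclei (vertical axis, log scale) by the number of Slc12a1 UMIs in the nucleus (horizontal axis, binned), for thick limb nuclei and the other kept nuclei at E18.5 and P3. Thick limb nuclei lie mostly at 20 or more UMIs (282 of 334 and 407 of 518), whereas 14450 other nuclei at E18.5 and 5561 at P3 have none.

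Just outside the rule lay the nuclei with at least 2 Slc12a1 UMIs and 2 of the 8 genes (239 at E18.5, 281 at P3), in which the summed Slc12a1 level was 2829 and 1021 CPM. Just inside lay the thick limb nuclei with exactly 3 of the 8 genes (80 and 110), at 7895 and 3659 CPM. A further 77 and 144 nuclei had 3 of the genes but 1 Slc12a1 UMI. Another 23 and 57 nuclei passed but for a UMI of Slc12a3. Among nuclei with at least 10 Slc12a1 UMIs, 116 at E18.5 and 79 at P3 were not members, 21 and 45 of them with a UMI of Slc12a3.

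The label was checked against genes that the rule did not use. Of the 19 genes listed for salt transport and its kinases, 17 at E18.5 and 19 at P3 passed the filter of 20 CPM in either set of nuclei, and 13 at each age were at least 2-fold higher in thick limb nuclei than in the other kept nuclei, with none at least 2-fold lower (folds here and in later counts are ratios after adding 10 CPM to both levels). Across all genes past the filter 4.39% were that much higher at E18.5 (402 of 9158) and 3.95% at P3 (341 of 8626), while 5.61% and 5.29% were that much lower. The list's median log2 ratio was 1.81 at E18.5 and 1.38 at P3, beside medians of -0.13 and -0.08 over all genes. The list did not set the limb apart from the next segment: it summed to 6865 and 6092 CPM in thick limb nuclei and to 7641 and 8729 in the distal convoluted tubule gate (at least 2 Slc12a3 UMIs, 174 and 107 nuclei). These folds are a description, since the nuclei were chosen for genes of the same cells, and the thick limb gene lists were drawn up with earlier results of these data known.

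Kcnj1 had a level of 187 CPM (164 to 212) in E18.5 thick limb nuclei and 210 (193 to 227) at P3, compared with 8.15 and 10.2 in the other nuclei. A Kcnj1 UMI was seen in 43.1% of thick limb nuclei at E18.5 and 50.8% at P3, against 1.42% and 2.54% of nuclei in the endothelium gate, which should lack it and whose median depth was 3132 and 3715 UMIs. Kcnj16, a basolateral potassium channel subunit, stood at 472 CPM (435 to 511) and 400 (377 to 424), compared with 89.0 and 188 in the other nuclei, though its P3 ratio was 0.991 against the other nephron segments only. Slc9a3, the apical sodium-proton exchanger, was at 207 and 236 CPM in thick limb nuclei. It was 16.1 times the other nuclei at E18.5 and 4.08 times at P3, with the level in the others at 12.8 and 57.9 CPM.

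Kinases that set cotransporter activity were also in the list. Stk39 (SPAK), the kinase that phosphorylates NKCC2, had levels of 723 and 575 CPM, 3.64 and 2.43 times the other nuclei. Wnk1, which acts above it, was at 945 and 973 CPM in thick limb nuclei but at 1516 and 2819 in the distal convoluted tubule gate. Nuclear RNA is rich in introns, and a count can grow with the length of a gene, so levels of these genes are set side by side per kb of gene. On that scale Slc12a1 was at 142 CPM per kb at E18.5 and 131 at P3, compared with 17.3 and 22.4 for Kng2 and 10.0 and 10.8 for Esrrg.

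**Figure D2:**
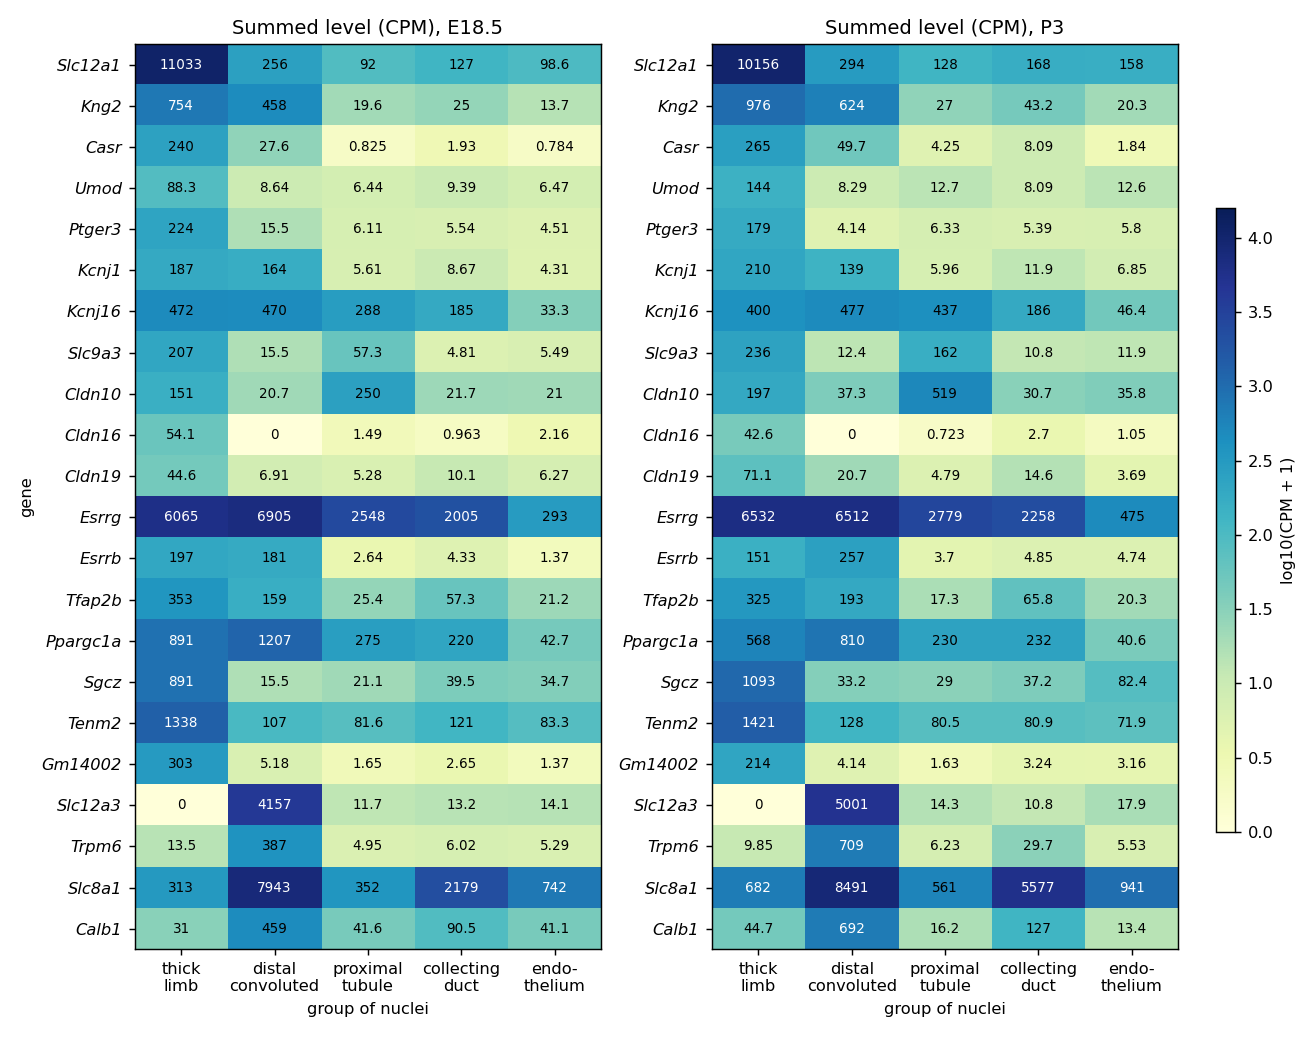
Summed level in CPM (printed in each cell, with color on a log10 scale of CPM + 1) of chosen genes in thick limb nuclei, in the distal convoluted tubule, proximal tubule and collecting duct gates and in the endothelium gate, at E18.5 and P3. Kcnj1 was at 187 and 210 CPM in thick limb nuclei and at 4.31 and 6.85 in the endothelium gate, while Cldn16 was at 0 in the distal convoluted tubule gate at both ages.

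Some genes were also read in the gate of the next segment, the distal convoluted tubule, whose own list summed to 14190 and 16447 CPM there and to 1003 and 1214 in thick limb nuclei. The gate had 164 and 139 CPM of Kcnj1 and 470 and 477 of Kcnj16. Slc8a1, the basolateral sodium-calcium exchanger, was at 313 and 682 CPM in thick limb nuclei and at 7943 and 8491 in the gate. Thick limb nuclei of the stricter set had 175 and 309 CPM of Slc8a1. Trpm6, the apical magnesium channel, was at 13.5 and 9.85 CPM in the limb and 387 and 709 in the gate. In the other direction lay Casr, with 240 and 265 CPM in thick limb nuclei and 27.6 and 49.7 in the gate. Casr was a rule gene, whereas Cldn16, which was not, had 0 UMIs in the gate at either age, which allows up to 5.18 and 6.22 CPM.

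Of the listed transcription factors, 10 of the 18 past the filter were at least 2-fold higher in thick limb nuclei at E18.5 and 10 of 18 at P3, beside 4.39% and 3.95% of all genes. Esrrg, an orphan nuclear receptor of the distal nephron, was at 6065 CPM (5930 to 6203) in the embryonic and 6532 (6438 to 6626) in the postnatal library. It was as high in the distal convoluted tubule gate (6905 and 6512). Tfap2b stood at 353 and 325 CPM against 41.6 and 34.8 in the other nuclei, and Sim1 at 516 and 519 against 149 and 144. Tfap2b in the distal gate was 159 and 193 CPM. Ppargc1a, a coactivator of mitochondrial genes, was at 891 and 568 CPM in thick limb nuclei and was the only one of 15 filtered genes of mitochondrial oxidation that passed 2-fold there, a share near that over all genes and not a result about the list.

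Outside the rule genes the 15 highest ratios to the other nuclei were taken at each age among genes of at least 50 CPM, and 7 genes were in both lists. Gm14002, a locus named only by a model number, had the highest ratio at E18.5 and stood at 303 and 214 CPM against 2.40 and 2.76 elsewhere. Sgcz, a sarcoglycan gene, was at 891 (840 to 945) and 1093 CPM (1055 to 1132), against 44.0 and 50.2 in the other nuclei and 15.5 and 33.2 in the distal gate. Tenm2, a teneurin adhesion protein, was at 1338 and 1421 CPM against 170 and 134. Abca13 entered both lists too but was more abundant in the distal convoluted tubule gate, with 2128 and 2910 CPM, than in the limb, with 472 and 647. Over the 402 genes at least 2-fold higher at E18.5, 271 (67.4%) were so at P3, which is 79.5% of the 341 at P3.

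Of the proximal tubule list 5 of 7 filtered genes at E18.5 and 7 of 8 at P3 were at least 2-fold lower in thick limb nuclei, and of the endothelium list 5 of 7 and 6 of 7 were, beside 5.61% and 5.29% of all genes. With no upper UMI limit on nuclei, the number of all genes that much lower went from 514 to 73 at E18.5 and from 456 to 3 at P3. The comparison set included the endothelium itself: with other nephron segments only as the comparison, the ratio was above 1 for 4 endothelial genes at E18.5 (Flt1 2.0, Emcn 1.15) and 6 at P3 (Flt1 2.80, Ptprb 2.30). The summed levels of the lists of other cell types were not at 0. The endothelial genes summed to 247 and 261 CPM, with Flt1 (58.1) and then Emcn (75.3) the highest in CPM, not per length, and to 140 and 129 in the stricter set. Stromal genes summed to 942 and 863 CPM and podocyte genes to 1651 and 1343, most of the latter from Magi2 (1306 and 1111). In the stricter set the stromal genes were at 858 and 516 CPM and the podocyte genes at 1007 and 1121, so that the P3 to E18.5 ratio of the podocyte list turned from 0.813 to 1.11. The part of free RNA and of doublets in these levels was not tested, beyond the values of the stricter set.

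Slc26a4, the anion exchanger of intercalated cells, had 0 UMIs in E18.5 thick limb nuclei, which allows up to 2.39 CPM, and 151 at P3, of which 138 lay in 2 nuclei that each held 2 Slc12a1 UMIs. Its P3 level was 2.11 times the other nuclei after adding 10 CPM and 0.410 times in the stricter set.

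RefSeq promoter windows (build GRCm38.p6, 250 bases before to 50 bases after each start) were searched on both strands for AAGGTCA, the core to which receptors of the Esrrg and Esrrb family bind. The letters, or TGACCTT on the other strand, stood in 4.72% of all 32851 windows and in a window of 5.38% of the 27025 genes. They were in 1 of the 12 salt transport genes and 1 of the 6 genes for secreted and luminal products that had a window, and in none of the rule genes, claudins or listed transcription factors, which says only that these letters were not in this window. Both stretches that hold them are shown with the match in capitals. They lie at chr11:110967832-110967860 (plus strand) and chr2:164221855-164221883 (minus strand), and the match ended 183 and 202 bases before the start.
Kcnj16: gtatacttgagTGACCTTcagagaaacag
Wfdc15b: cccaagctactAAGGTCAtcacgaacatc
A match is a description of the letters and not a bound site.

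The claudins were described next because they split the nuclei. Cldn10 and Cldn16 encode pores for sodium and for calcium and magnesium, and Cldn19 is the partner of Cldn16. Cldn16 was at 54.1 CPM (42.0 to 68.6) in E18.5 thick limb nuclei and 42.6 (35.3 to 50.9) at P3, against 1.92 and 1.25 in the other nuclei. Cldn19 was at 44.6 and 71.1 CPM against 7.04 and 6.62. Cldn10 was at 151 and 197 CPM in thick limb nuclei but higher in the proximal tubule gate, at 250 and 519, so that its ratio to the other nuclei was 2.90 at E18.5 and 1.08 at P3. Of the 14 listed claudins 6 passed the filter at E18.5 and 5 at P3, and 3 and 2 of them were at least 2-fold higher in thick limb nuclei, beside 4.39% and 3.95% of all genes.

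Within the thick limb nuclei, clusters were made in each library without the 9 genes of the rule, 7 at E18.5 and 11 at P3. They are described by their leading genes, and their values are not tests, since the nuclei were grouped on the same counts. For description, 5 pairs of clusters with shared leading genes, 1 cluster from each age, are followed below. A group led by Prox1 and Sgcz had 80 nuclei at E18.5 and 82 at P3. A group led by Nrxn3 and Wnk1 had 65 and 81, a group led by Tenm2 and Ntn4 29 and 62, and a group led by Ptprt and Ntm 58 and 67. A macula densa-like group had 29 and 17. The genes in the names of the other groups were among the 10 leading genes at both ages, but not always the first. At P3 Slc26a4 and Slc4a9 ranked above Nrxn3 and Wnk1, and at E18.5 Tenm2 ranked 6 and Sgcz 7 in their clusters. Of the 50 leading genes of each cluster, 16, 18, 11, 12 and 25 were shared between the ages, in that order of the groups. Other pairs, which shared 23, 18 and 15, were not followed, and their E18.5 clusters were the 2 rich in doublet calls that are described next. The E18.5 cluster of the Tenm2/Ntn4-led group also shared 10 with the P3 macula densa-like cluster.

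Doublet calls were few in these groups, at most 6.25% of the nuclei of any. They were many in the E18.5 clusters led by Kcnb2 and Meg3 (39 nuclei, 87.2% called) and by Eya1 and Nebl (34 nuclei, 76.5%), and in the P3 clusters led by Kcnd2 and Csmd1 (73 nuclei, 68.5%), by Hnf4aos and Slc34a1 (30 nuclei, 66.7%) and by Ptpro and Nphs1 (10 nuclei, 7 called). In these last 2 the summed proximal tubule genes reached 7393 CPM and the summed podocyte genes 33881. The P3 clusters led by Eya1 and Mdga2 (33 nuclei), Slc14a2 and Egfem1 (22) and Adgrl4 and Iqgap3 (41) also led with genes of other cells. None of these clusters was given a name.

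Cldn10 and Cldn16 divided the first 2 groups in opposite directions at both ages. At E18.5 the Prox1/Sgcz-led group had 369 CPM of Cldn10 (304 to 445) and the Nrxn3/Wnk1-led group 13.5 (2.78 to 39.5), a ratio of 27.4. At P3 the levels were 321 (267 to 382) and 39.0 (22.3 to 63.3), a ratio of 8.23. For Cldn16 the order was the other way, at E18.5 13.4 CPM (3.66 to 34.4) against 140 (94.8 to 198), and at P3 30.6 (15.8 to 53.4) against 136 (103 to 177). None of these pairs of intervals overlapped. With the stricter set of nuclei the ratio for Cldn10 was 26.9 and 7.86, and that for Cldn16 0.10 and 0.217. Cldn19 was not split in this way, with 53.7 and 81.0 CPM at E18.5 and 112 and 107 at P3.

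**Figure D3:**
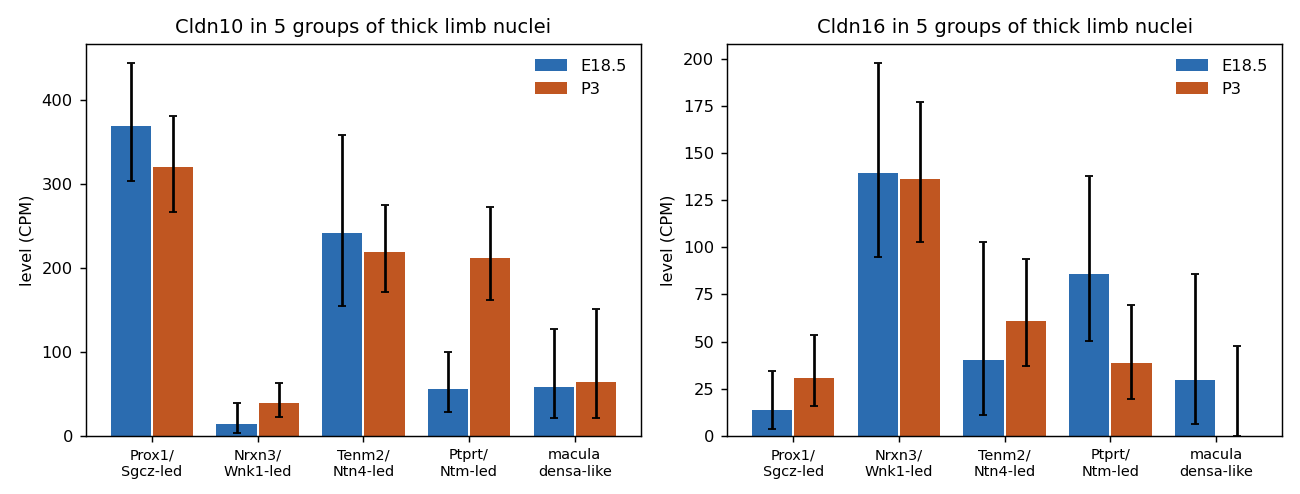
Level in CPM (vertical axis, from 0) of Cldn10 and Cldn16 in 5 groups of thick limb nuclei at E18.5 and P3, with bars for the summed level and error bars for the 95% counting interval. Cldn10 is high in the Prox1/Sgcz-led group (369 and 321 CPM) and low in the Nrxn3/Wnk1-led group (13.5 and 39.0), and Cldn16 is the reverse (13.4 and 30.6 against 140 and 136).

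Levels of rule genes, which were left out when the clusters were made but chose the nuclei, are given for the same groups as a description and support nothing. Casr was at 154 CPM in the Prox1/Sgcz-led group and 396 in the Nrxn3/Wnk1-led group at E18.5, and at 278 and 668 at P3. Enox1, an ecto-NOX oxidase, was at 252 against 3488 CPM and then 234 against 2636. Esrrb, an orphan nuclear receptor, ran the other way, at 480 against 140 CPM and 298 against 73.1. Ptger3, a receptor for prostaglandin E2, had 447 against 171 CPM at E18.5 and 211 against 36.5 at P3. These orders were not followed by all 5 groups, as the Tenm2/Ntn4-led group shows further on.

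Other genes of known function followed the division. Pth1r, the parathyroid hormone receptor, was at 70.5 CPM in the Prox1/Sgcz-led group and 270 in the Nrxn3/Wnk1-led group at E18.5, and at 96.8 and 570 at P3. Wnk1, a leading gene that names the second group, was at 238 against 3168 CPM and at 267 against 3833, which only describes the grouping. Esrrg was the reverse, at 10710 against 3276 CPM and 10238 against 3884. Kcnj10, a basolateral potassium channel, was at 30.2 against 76.5 CPM and 43.3 against 115. Slc12a1 itself was at 12859 and 14324 CPM in the groups at E18.5 and at 14564 and 14463 at P3. At P3, Slc26a4 also led the Nrxn3/Wnk1-led cluster, where 2 nuclei held most of its UMIs, as given above. Slc4a9, Atp6v0d2 and Oxgr1, other genes of intercalated cells, were among the leading 10 of that cluster, and the intercalated cell list summed to 595 CPM in it and 25.9 in the other P3 thick limb nuclei.

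The division was weak when single nuclei were asked for both claudins. Unthinned, 7 E18.5 nuclei held a UMI of both Cldn10 and Cldn16, where the product of their shares gives 15.4, and 30 P3 nuclei held both, where it gives 37.8. In the stricter set the counts were 6 against 14.6 and 18 against 33.3. After each nucleus was thinned to 1000 UMIs they were 2 against 1.89 and 2 against 3.89, too few at this depth to show a difference. Cldn16 and Casr were seen together in 31 nuclei against 22.7 at E18.5 and in 63 against 43.6 at P3, unthinned. In the stricter set these were 26 against 21.5 and 52 against 41.7, and after thinning to 1000 UMIs 4 against 2.87 and 8 against 5.33. Casr was also a rule gene.

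The macula densa-like group was named from Nos1, Ptgs2, Pappa2, Ptges and Robo2, 5 markers with a UMI at E18.5 and 4 at P3. A UMI of that many listed markers did not set the group apart, since most other clusters of each age had as many. The listed markers summed to 8532 and 9563 CPM in the group, against 1296 and 727 in the other thick limb nuclei. Among its 10 leading genes 2 were listed markers at E18.5 and 3 at P3. Oxtr, the last of the 6 listed markers, had 0 UMIs in it at either age, and Ptges, with 2 UMIs at E18.5 (19.5 CPM), was at 40.2 CPM in the Tenm2/Ntn4-led group. Nos1, the neuronal nitric oxide synthase of the macula densa, was at 459 CPM (338 to 611) there at E18.5 and 375 (251 to 538) at P3, and at most 10.6 CPM in the other 4 groups. Pappa2, a protease that frees insulin-like growth factors, was at 1554 and 1809 CPM, with its next highest level of 551 and 406 in the Ptprt/Ntm-led group. Robo2, a guidance receptor, was at 6314 and 7289 CPM, though podocytes carry it too. The same nuclei were low in Ppargc1a (117 and 181 CPM, against 623 or more in the other 4 groups). Umod, a rule gene, had 2 UMIs in them at each age (19.5 and 25.8 CPM). That is too few to tell its level from the 31.5 CPM of the Nrxn3/Wnk1-led group at E18.5.

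Ptgs2, the inducible prostaglandin synthase of these cells, was detected at 1 age only. At E18.5 it had 28 UMIs in 18 thick limb nuclei, 19 of them in the macula densa-like group, whose level was 186 CPM (112 to 290). At P3 it had 0 of 2842587 UMIs, which allows up to 1.06 CPM over all thick limb nuclei. In the 17 P3 nuclei of the group, 0 UMIs allow up to 38.8 CPM. Over all thick limb nuclei the level of 22.3 CPM at E18.5 was at least 21.1-fold higher than at P3, computed against 3 UMIs over all P3 thick limb nuclei (1.06 CPM). In the other kept nuclei the P3 to E18.5 ratio of Ptgs2 was 0.208 (0.112 to 0.360).

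**Figure D4:**
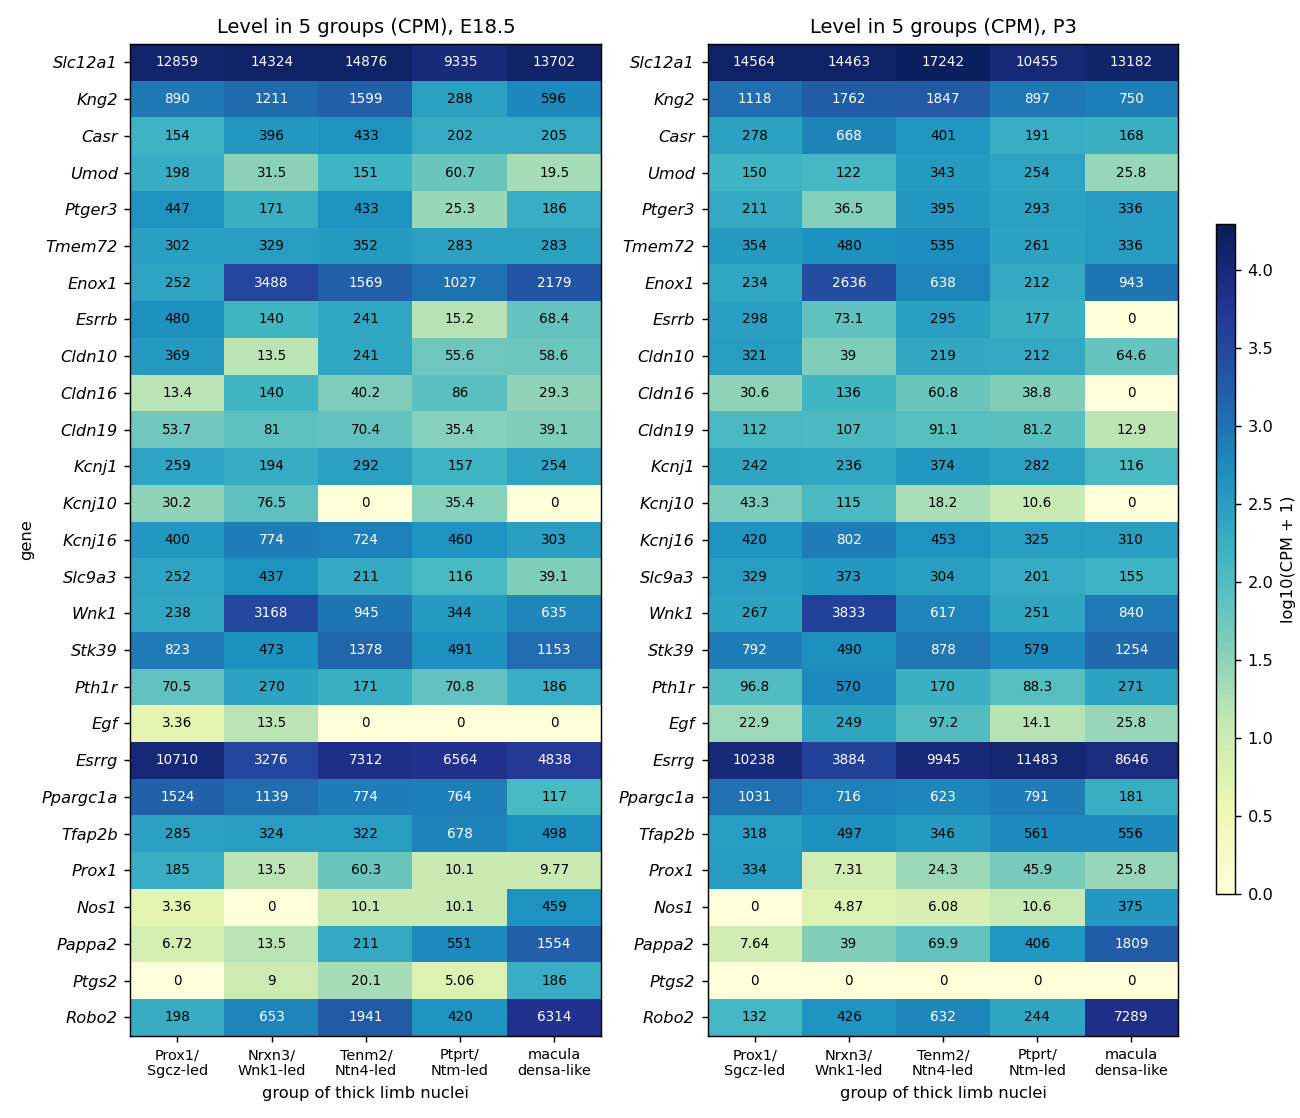
Level in CPM (printed in each cell, with color on a log10 scale of CPM + 1) of chosen genes in the 5 groups of thick limb nuclei at E18.5 and P3. Nos1 is at 459 and 375 CPM in the macula densa-like group and Enox1 at 3488 and 2636 in the Nrxn3/Wnk1-led group.

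The Tenm2/Ntn4-led group had 241 and 219 CPM of Cldn10, 40.2 and 60.7 of Cldn16 and 433 and 401 of Casr. Its Casr at E18.5, from 43 UMIs, was close to the 396 CPM (88 UMIs) of the Nrxn3/Wnk1-led group, which had 668 at P3. At P3 the Tenm2/Ntn4-led group had the highest level of Umod of the 5, 343 CPM (283 to 413). The Ptprt/Ntm-led group had the lowest Slc12a1, 9335 and 10455 CPM. In it Cldn10 was at 55.6 CPM (27.8 to 99.5) and then 212 (162 to 273), and Esrrb at 15.2 and 177. Only 12 of 50 leading genes were shared between its clusters of the 2 ages, and only 11 of 50 between those of the Tenm2/Ntn4-led group, so values for either group can come from different kinds of nuclei.

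Between the ages, the thick limb nuclei were compared as sums over each library. These sums include the clusters rich in doublet calls or led by genes of other cells, which were not the same at the 2 ages. At E18.5 those clusters held 11.7% and 10.2% of thick limb nuclei. At P3 they held 14.1%, 7.92%, 6.37%, 5.79%, 4.25% and 1.93%, so their share together was larger at P3. The ratios between the ages below carry that difference unless given for the stricter set or within a group. Of 8660 genes past the filter, 1.91% (165) were at least 2-fold higher at P3 and 4.98% (431) at least 2-fold lower. The median log2 ratio was -0.02, and -0.04 for the same genes in the other kept nuclei. Scaling the sums by DESeq2 or edgeR's TMM instead of the total raised every P3 ratio by 0.10 or 0.08 on the log2 scale. Of the 165 genes, 74 (44.8%) were also at least 2-fold higher in the other nuclei, and 343 of the 431 (79.6%) were at least 2-fold lower there. The share of all 8660 genes that passed in the other nuclei is not given here, so these counts are a description only. In the stricter set 96 of the 165 (58.2%) and 403 of the 431 (93.5%) passed.

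Ribosomal protein genes were 78 of the 431. They summed to 44160 CPM at E18.5 and 10438 at P3 in thick limb nuclei, a ratio of 0.236, with 78 of the 79 filtered genes at least 2-fold lower. In the other kept nuclei the ratio was 0.230. Haemoglobin and other erythroid genes gave 0.157 and 0.180, and Igf2, a fetal growth factor, 0.168 and 0.194. Genes of at least 100 kb held 32.8% of thick limb UMIs at E18.5 and 40.1% at P3, and 33.9% and 42.8% in the other nuclei. These differences ran through the libraries as a whole, and the part of age, library and counting release in them cannot be told apart.

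None of the 19 genes of salt transport and none of the 18 filtered transcription factors was 2-fold different between the ages. As only 1.91% of all genes were 2-fold higher and 4.98% lower, such counts of 0 are near the background and are not a result about these lists. The P3 to E18.5 ratio was 1.12 (0.963 to 1.31) for Kcnj1. For the rule genes Slc12a1 and Casr, by which the nuclei were chosen, it was 0.92 (0.902 to 0.939) and 1.11 (0.966 to 1.27), given as a description. For Slc12a1 it was 1.03 in the stricter set, so its direction turned with the choice of nuclei. Bsnd, which encodes the membrane protein barttin, was higher, with 12.7 CPM (7.28 to 20.7) and 29.9 (23.9 to 37.0), a ratio of 2.35 (1.37 to 4.29) that was under 2-fold once 10 CPM were added.

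Of the 5 filtered genes for secreted and luminal products, Egf alone was at least 2-fold higher at P3, beside 1.91% of all genes. Egf, which encodes the precursor of epidermal growth factor, was at 7.16 CPM (3.27 to 13.6) at E18.5, while at P3 it was at 61.2 (52.4 to 71.0), a ratio of 8.55 (4.40 to 19) against 1.5 in the other nuclei and 18.8 in the stricter set. Its P3 UMIs, 174 in 53 nuclei, gave 249 CPM (203 to 302) in the Nrxn3/Wnk1-led group, 97.2 in the Tenm2/Ntn4-led group and 22.9 (10.5 to 43.5) in the Prox1/Sgcz-led group. The 10 nuclei of the P3 cluster led by Ptpro and Nphs1 were at 261 CPM (149 to 424), from 16 UMIs. An Egf UMI was present in 10.2% of thick limb nuclei at P3, compared with 3.20% of endothelium nuclei. Wfdc15b, a whey acidic protein family gene, gave 2.51 (1.53 to 4.34), where the other nuclei gave 0.484. Umod, encoding uromodulin, the main protein of normal urine, was a rule gene, so that its ratio of 1.63 (1.32 to 2.03) is only a description.

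**Figure D5:**
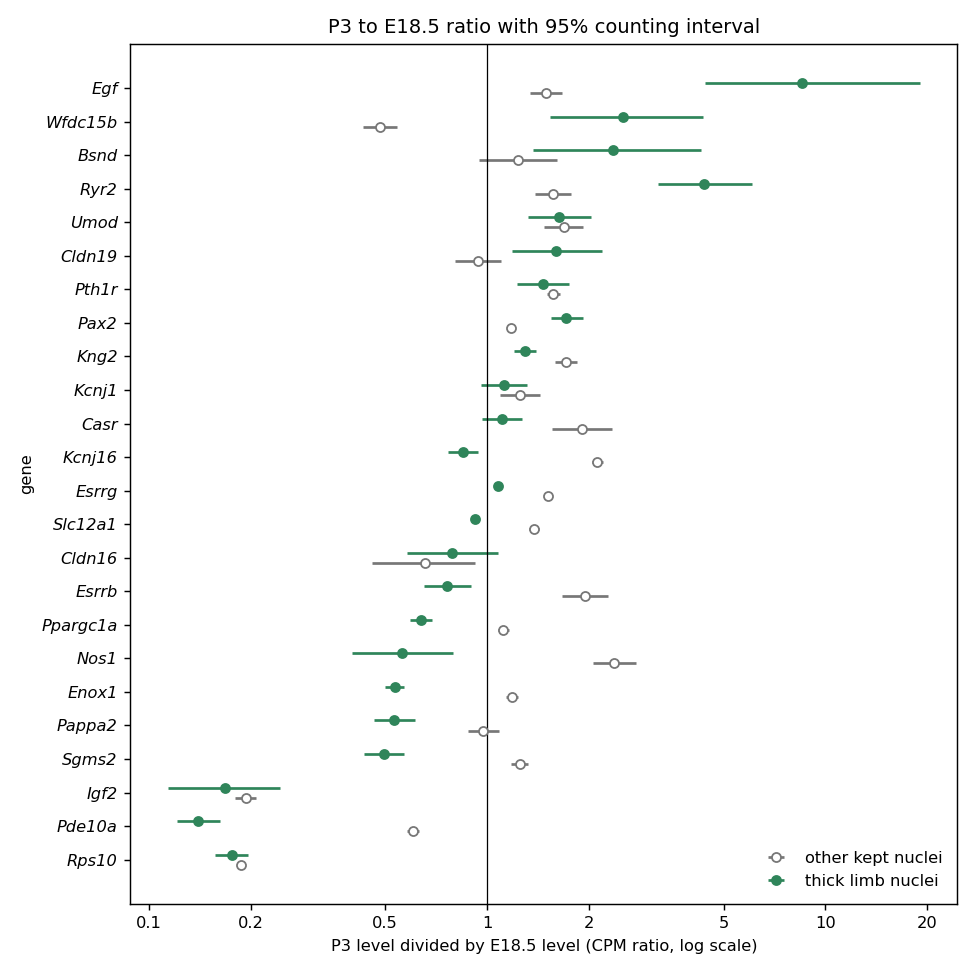
P3 level divided by E18.5 level (horizontal axis, log scale, with 95% counting intervals) of chosen genes in thick limb nuclei (filled) and in the other kept nuclei (open). Egf lies at 8.55 and 1.5, Pde10a at 0.140 and 0.603, and the rule gene Slc12a1 at 0.92 and 1.38.

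Pde10a, a phosphodiesterase that breaks down cyclic nucleotides, was the only one of the 10 lowest ratios that was not matched in the other nuclei. It was at 625 and 87.6 CPM in thick limb nuclei, a ratio of 0.140 (0.121 to 0.162), and 0.603 (0.579 to 0.628) in the other nuclei. The ratio was 0.110 in the stricter set. In the Nrxn3/Wnk1-led group Pde10a was at 1643 and 139 CPM and in the macula densa-like group at 1661 and 698. Pappa2 gave 0.531 (0.462 to 0.611) against 0.975 elsewhere, Ppargc1a 0.638 (0.591 to 0.689) against 1.12, and Sgms2, a sphingomyelin synthase, 0.496 (0.433 to 0.568) against 1.25. For each of these genes the interval did not overlap that of the other nuclei. Pappa2 was most abundant in the macula densa-like group, 8.68% of thick limb nuclei at E18.5 and 3.28% at P3, and within that group its ratio was 1.16 (0.921 to 1.47). It was 0.331 (0.175 to 0.628) within the Tenm2/Ntn4-led group and 0.737 (0.562 to 0.966) within the Ptprt/Ntm-led group, and the remaining pair of groups had at most 16 UMIs of it. For Ppargc1a the ratio was 0.677 (0.590 to 0.775) within the Prox1/Sgcz-led group and 0.629 (0.530 to 0.747) within the Nrxn3/Wnk1-led group. Its interval included 1 within the Tenm2/Ntn4-led (0.804), Ptprt/Ntm-led (1.04) and macula densa-like (1.54, from 12 and 14 UMIs) groups.

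Ryr2, an intracellular calcium release channel, was the gene among the 10 highest P3 ratios that departed most from the other nuclei. It was at 35.8 and 156 CPM, a ratio of 4.36 (3.21 to 6.07), against 1.56 in the others and 5.58 in the stricter set, and it led the P3 cluster of the Tenm2/Ntn4 group. Gm19951 (12.5 against 11.7), Nuak2 (6.91 against 9.28), Slc5a12 (5.21 against 5.46), Dab2, Slc14a2, Kcnd2, Lars2 and Tinag had high ratios in both sets of nuclei. Of the 330 P3 UMIs of Slc14a2, 218 lay in the 22 nuclei of the cluster it led, and 99 lay in 2 nuclei that each held 2 Slc12a1 UMIs. Kcnd2, a potassium channel, went from 3.44 to 1.32 in the stricter set, and B3galt1 from 4.01 to 3.11. Slc5a12 and Dab2 belong to the proximal tubule, whose listed genes gave 2.61 in thick limb nuclei and 2.85 in the others. The lowest 10 ratios were those of Hbb-bs, Pde10a, Tpt1 and 7 ribosomal or ribosomal-like loci, and all but Pde10a were as low in the other nuclei (Hbb-bs 0.125 and 0.136, Tpt1 0.170 and 0.169).

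Of the 11 filtered genes for hormone receptors and cAMP, Egfr alone was at least 2-fold different between the ages, at 32.6 and 75.3 CPM, and it lay right at that limit, against 1.91% of all genes higher and 4.98% lower. In the stricter set its ratio was 1.67 after adding 10 CPM, under 2-fold. Pth1r was at 134 CPM (115 to 156) and 196 (180 to 213), a ratio of 1.46 (1.23 to 1.74), which the other nuclei matched at 1.57. Within the Nrxn3/Wnk1-led group it was 2.11 (1.58 to 2.85), and within the other 4 groups it lay between 0.995 and 1.46, with intervals that include 1. Nos1 was at 50.1 and 28.1 CPM over all thick limb nuclei, a ratio of 0.561 (0.399 to 0.794), yet within the macula densa-like group it was 0.816 (0.495 to 1.32), an interval that includes 1. Cell cycle genes summed to 858 and 992 CPM in thick limb nuclei, against 1441 and 1077 in the others, and none of the 15 filtered was 2-fold different between the ages. At P3 they summed to 4009 CPM in the cluster led by Adgrl4 and Iqgap3, against 708 in the other thick limb nuclei, and to 2311 in the cluster led by Eya1 and Mdga2.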

How the data were processed

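The authors deposited, for each library, a matrix of counts: whole UMIs per gene and barcode, not normalized. Reads were counted against mm10 with Cell Ranger, 5.0.1 for both per the labels, whereas the E18.5 file header names 7.0.0 and the P3 header 5.0.1; intronic counting is not given in the sources used here. That difference cannot be told apart from age. Depth per library and per group is given with the results, and counting intervals cover counting error only.

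Raw counts were summed over nuclei and divided by all UMIs of those nuclei (CPM). Levels have exact Poisson intervals, ratios exact conditional binomial intervals and shares exact Clopper-Pearson intervals, all at 95%. Genes entered a count of folds if at least 20 CPM in either set, and a fold was the ratio after adding 10 CPM, at least 2 or at most 0.5. A count of 0 was bounded with 3 counts. The gates used at least 2 Slc12a3 UMIs, 3 of 7 proximal tubule, 2 of 6 collecting duct or 3 of 7 endothelium genes. Clusters came from 2000 variable genes, 20 components, 15 neighbours and Leiden at resolution 0.5 (scanpy 1.11.5, whose Scrublet, at an expected rate of 0.1, scored doublets in all deposited barcodes of a library); doublets were kept unless stated. Genes were named by rule, as the 10 highest and lowest P3 to E18.5 ratios at 100 CPM or more, the 15 highest ratios to other nuclei at 50 CPM or more, and members of 22 lists of 218 genes. The members, lists and alternatives were chosen with earlier results of these data known. edgeR 4.0.16 and DESeq2 1.42.0 gave scaling factors only, as no test was possible with 1 library per age. The ratio calculation was tested on simulated data. Symbols and gene lengths are from GENCODE M21, which held 32235 of 32285 identifiers. Some genes and sequence matches are not reported here.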

Additional observations from a re-analysis of the deposited data

How the results depend on the processing

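No paired analysis was possible because each age has 1 library. Of the alternatives to the counts and ratios given first, 100 stayed within 1.5 times or within counting error and 28 did not. The 100 include E18.5 results under the 6000 limit at P3, which could not change them. The 165 genes at least 2-fold higher at P3 became 316 with 1 CPM added, 64 at 100 CPM or more, 368 or 558 with nuclei thinned to 1000 UMIs after or before the rule, and 99 with 6000 UMIs as the P3 limit, and the 431 genes at least 2-fold lower at P3 became 743, 212, 689 and 1015 under the first 4 of these. At E18.5, at 100 CPM or more, the 402 genes higher than in other nuclei became 229 and the 514 lower became 214. The 514 became 831 both with 1 CPM added and in the stricter set, 73 with no upper UMI limit and 778 without called doublets. At P3 the 341 higher genes became 169 at 100 CPM or more and 158 with no upper limit. The 456 lower genes became 743 with 1 CPM added, 690 with at least 10 Slc12a1 UMIs, 961 in the stricter set, 225 at 100 CPM or more, 3 with no upper limit, 790 with the 6000 limit and 755 without called doublets. Numbers of thick limb nuclei became 182 at E18.5 and 286 at P3 when thinned before the rule, and at P3 781 with no upper limit and 321 with the 6000 limit.

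Of the other values for genes and lists, 7433 stayed, 1499 moved and 16 reversed. Among the 7433 were 252 E18.5 ratios to other nuclei under the 6000 limit at P3, which could not change them. With only other nephron segments as the comparison, ratios passed 1 for Emcn (1.15), Flt1 (2.0), Pecam1 (1.26) and Ptprb (1.40) at E18.5 and for Cdh5 (1.30), Egfl7 (2.16), Emcn (2.19), Flt1 (2.80), Kdr (1.49) and Ptprb (2.30) at P3, while Kcnj16 fell to 0.991 at P3. The Slc12a3 ratio at P3 was 1.02 with its nuclei kept. The Slc26a4 ratio at P3 was 0.426, 0.410, 0.440 and 0.559 with at least 10 Slc12a1 UMIs, the stricter set, at least 3 Slc12a1 UMIs and the 6000 limit. Causes of these shifts were not tested. The settings of at least 10 Slc12a1 UMIs and of the stricter set were chosen after seeing the data, as was leaving ribosomal, mitochondrial and haemoglobin genes out of the totals.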

Other observations

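Claudins of other segments were also read in thick limb nuclei between the ages. Of the 6 listed claudins past the filter, 1 was at least 2-fold lower at P3, Cldn5, the claudin of endothelium, at 49.3 and 14.4 CPM, against 4.98% of all genes. Its ratio was 0.292, and 0.290 in the other kept nuclei. Cldn6, of the early nephron, was at 22.3 and 6.68 CPM, a ratio of 0.300 against 0.241 in the other nuclei, and Cldn7, of the distal nephron and collecting duct, at 43.0 and 22.9. Of 11 filtered genes of fetal growth, 3 were at least 2-fold lower at P3, Igf2 (83.6 and 14.1 CPM), the noncoding RNA H19 (76.4 and 13.4) and Dlk1 (20.7 and 1.06), while Hmga2 (288 and 271) and Grb10 (343 and 334) stayed within 2-fold. The list summed to 1666 and 1195 CPM, a ratio of 0.717 against 0.617 in the other kept nuclei.

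Lists of other cell types gave these sums in thick limb nuclei. Nephron progenitor and early nephron genes were at 485 and 474 CPM (1010 and 862 in the other nuclei), with Wt1 the highest in CPM, not per length. They were at 321 and 273 CPM in the stricter set. Collecting duct principal cell genes were at 139 and 109 CPM (268 and 171) and intercalated cell genes at 31.8 and 108 (62.3 and 86.6). Of the 151 P3 UMIs of Slc26a4, in this last list, 138 lay in 2 nuclei, and in the stricter set the list was at 30.7 and 51.8 CPM. Leukocyte genes were at 35.0 and 43.3 CPM (65.2 and 111). Thin limb genes were at 137 and 290 CPM (279 and 365), with Epha7, an ephrin receptor, the highest in CPM. In the 22 nuclei of the P3 cluster led by Slc14a2 they summed to 1683 CPM, against 217 in the other P3 thick limb nuclei. Slc14a2 alone, the gene that leads the cluster, made up 1535 CPM of that sum. The distal convoluted tubule list summed to 6167 CPM in the same cluster, against 954 in the other P3 thick limb nuclei. Collecting duct principal cell genes summed to 1021 CPM there, against 61.1. The distal convoluted tubule list was at 1003 and 1214 CPM (1357 and 2128), with Pvalb listed at 2 UMIs at E18.5 and 0 at P3. That list was at 962 and 930 CPM in the stricter set, so that its P3 to E18.5 ratio turned from 1.21 to 0.967. Macula densa genes over all thick limb nuclei were at 1885 and 967 CPM (2013 and 906), most of it from Robo2. Mitochondrially encoded genes were at 924 and 664 CPM (1164 and 790), within the limit that the choice of nuclei set.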
